A study of Mus musculus with 9 samples.

Results

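The genes described here are the cytosolic ribosomal protein genes, among them Rpl3l, the striated muscle paralog of Rpl3. They were chosen by name alone, as symbols of the form Rpl or Rps with a number, Rplp0 to Rplp2 and Rpsa, leaving out the S6 kinases and named pseudogenes, which gave 86 of the 24537 gene names in the table, 54 of the large (60S) and 32 of the small (40S) subunit. Where a gene had several transcripts, the one with the highest summed count stood for it. RNA-seq counts were available for 3 sham heart and 3 sham quadriceps libraries. The mice were C57Bl6 per the labels and C57Bl/6JCrl per the methods of the study, were sham operated at 8 weeks of age without the constriction of the aorta, and were sampled 12 weeks later, and were male wild-type animals. The libraries had replicate numbers, but nothing in the labels says which heart and quadriceps came from the same mouse, and p-values measure the spread between these libraries. A further group of 3 quadriceps libraries came from mice with transverse aortic constriction (TAC), a band on the aorta that overloads the heart, but the table of that comparison listed 587 genes and 0 of the 86, so the comparison with TAC was not analysed here.

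Each cytosolic ribosome holds a single copy of most of these proteins, and cells make them in near equal amounts. Their mRNAs are short, abundant and often begin with a run of pyrimidines (a terminal oligopyrimidine, or TOP, tract), through which the mTOR pathway and the RNA-binding protein LARP1 tune their translation. A few have paralogs that are used in some tissues, and RPL3L, which is made mainly in heart and skeletal muscle, takes the place of RPL3 near the peptidyl transferase centre of the large subunit. Many have left processed pseudogenes in the mouse genome, so that a short read from the mRNA may match several places.

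That similarity bears on every count below, and 3 paralog pairs show how far the members of a pair can be told apart. In each, the aligned stretch of 30 coding bases nearest the middle of the coding sequence is given for both genes, 5′ to 3′, from GENCODE transcripts of mm10, with the bases that differ between the pair in capitals.
Rpl3, coding bases 599 to 628: ggCtggagCagcaggtTcctgtGAacCAGg
Rpl3l, coding bases 599 to 628: ggAtggagAagcaggtGcctgtACacAGCg
Rpl22, coding bases 179 to 208: tCgtGACcatCgaacgcAGCaagaGCaaGa
Rpl22l1, coding bases 158 to 187: tTgtTCAcatTgaacgcCTGaagaATaaAa
Rps27, coding bases 113 to 142: caggAtgctaTaaAatCacCacGgtCttTa
Rps27l, coding bases 113 to 142: caggTtgctaCaaGatTacTacAgtTttCa
Rpl3 and Rpl3l differed at 8 of these 30 bases and were identical at 74.3% of 1209 aligned coding bases, with no identical run longer than 22 bases. Rpl22 and Rpl22l1 were 70.8% identical with a longest run of 26 bases, and Rps27 and Rps27l were 76.1% identical with a longest run of 11 bases. The reads were 50 bases long, so a full-length read that matched its gene exactly could not match the coding sequence of the partner in any of these pairs.

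Matches to pseudogenes were common. Each transcript was taken apart into windows of 50 bases. A window was called unique if it was found, with at most 1 mismatch, in no annotated mouse gene outside the gene's own locus. Genes that overlap the locus were left out of this search, and 18 of the 86 genes share exon bases with such a gene. Over the 86 genes the median share of unique windows was 44.5% and the range 2.4% to 100%. It lay under 20% in 20 genes and reached 90% in 7. In Rpl3l all windows were unique. Rpl3 had 9.22%, and its windows recurred in 26 pseudogenes. Rps18 had 2.54%, and the windows of Rpl7a recurred in 121 pseudogenes. Of the 86 genes, 84 shared a window with at least 1 pseudogene. The sources used here do not say how reads that match several places were counted. Counts per kilobase in heart rose only loosely with the unique share (Spearman's rho 0.289 across 74 genes), and the log2 difference between tissues did not follow it (rho -0.01), where genes share libraries and are not independent. For 62 of the 86 genes the annotated transcript was within 10% of the length in the table.

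**Figure D1:**
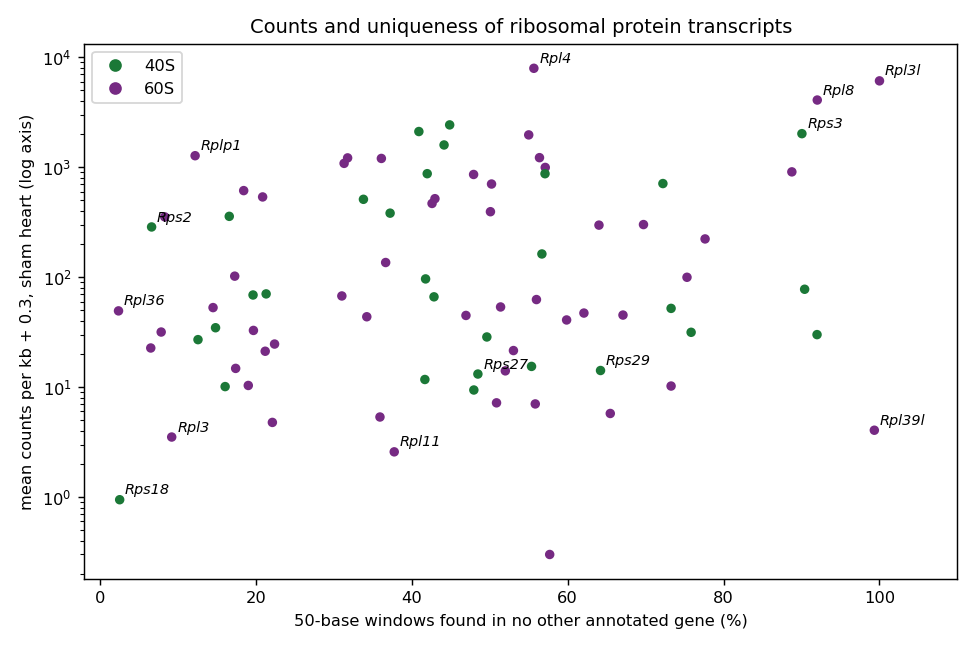
Mean counts per kilobase in sham heart (3 libraries, log axis, 0.3 added) against the percentage of 50-base windows found in no annotated gene outside the gene's own locus. Each gene reported here has 1 point, with colour by subunit. Rpl3l sits at 100%, Rpl3 and Rps18 lie near the lower left, and genes with like unique shares differ widely in counts.

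The libraries held 33102826 to 38382751 counts in heart and 23383452 to 32989108 in quadriceps. Marker genes went with the labels, with 10 of 10 cardiomyocyte markers lower and 10 of 10 skeletal myofibre markers higher in quadriceps. Markers of other cells differed too. Endothelial markers were lower in quadriceps in 8 of 8 genes (summed level 514 to 559 CPM in heart, where CPM is the count per 1000000 counts of the scaled library, and 162 to 191 in quadriceps), leukocyte markers in 5 of 7 tested (72.1 to 75.5 and 32.4 to 51.4), erythroid markers in 7 of 7 (261 to 311 and 76.2 to 94.9) and fibroblast markers in 4 of 8 (611 to 691 and 430 to 599), where Tcf21 was at 0 in the 3 quadriceps libraries. Among the erythroid markers Hba-a1 and Hba-a2 held the same count in every library, so they are not separate markers and the sum holds both. Hbb-b1 and Hbb-bs had near equal differences between the tissues, as had Hbb-b2 and Hbb-bt. Smooth muscle markers were lower in 2 and higher in 1 of 5 (144 to 171 and 86.2 to 107). Adipocyte markers were higher in quadriceps in 4 of 5 genes (235 to 305 and 192 to 496) and Schwann cell markers in 2 of 5 (21.5 to 25.4 and 41.7 to 49.9). The part of these cells in the differences below was not tested, and in bulk tissue fewer cells of a type cannot be told apart from less RNA per cell.

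As a whole the family took a like small share of the counts in both tissues' libraries. A library total here sums all listed transcripts, and a read in exons that several of them share may enter each. The family was summed over its chosen transcripts alone, so these values and those without the large transcripts are not shares of reads. The summed counts of the 86 genes were 0.134%, 0.139% and 0.139% of the library in heart and 0.136%, 0.132% and 0.131% in quadriceps, and these values overlapped. The libraries were filled differently, however. The 25 transcripts that each held over 1% of any library took 7.08% to 7.47% of the counts in heart and 31.6% to 37.2% in quadriceps. Among the remaining counts the family's share was 0.145% to 0.15% in heart and 0.196% to 0.21% in quadriceps, and the groups no longer overlapped. After scaling by the trimmed mean of M-values (TMM), which sets most transcripts level between libraries, the family summed to 1046 to 1070 CPM in heart and 1634 to 1821 in quadriceps. The direction for the family as a whole therefore depended on what it was measured against.

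Gene by gene, ribosomal protein mRNAs were more often higher than lower in quadriceps relative to most transcripts. Of the 86 genes, 74 had over 5 counts in 2 or more libraries and were tested, and 48 of these (64.9%) were higher and 7 (9.46%) lower in quadriceps at an adjusted p under 0.05 (edgeR quasi-likelihood test, Benjamini-Hochberg over 24280 transcripts), while 19 were not called. Of the 48, Rpl3, Rps12 and Rps18 entered the test through their quadriceps counts alone, so that their calls carry no weight as a sign of a difference. Among all transcripts tested, 32.2% were called higher and 34.4% lower. The median log2 fold change was 0.80 over the 74 genes and -0.06 over all transcripts. The subunits gave like counts, with 30 higher and 4 lower of 46 genes of the 60S subunit (median 0.71) and 18 higher and 3 lower of 28 genes of the 40S subunit (median 0.87). The 3 quadriceps values lay wholly above the 3 heart values in 49 genes and wholly below in 7, against 34.2% and 38.3% of all transcripts. Past a log2 fold change of 2 with an unadjusted p under 0.05, 8 genes were higher and 0 lower in quadriceps, where 7% and 8.64% of all transcripts were.

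**Figure D2:**
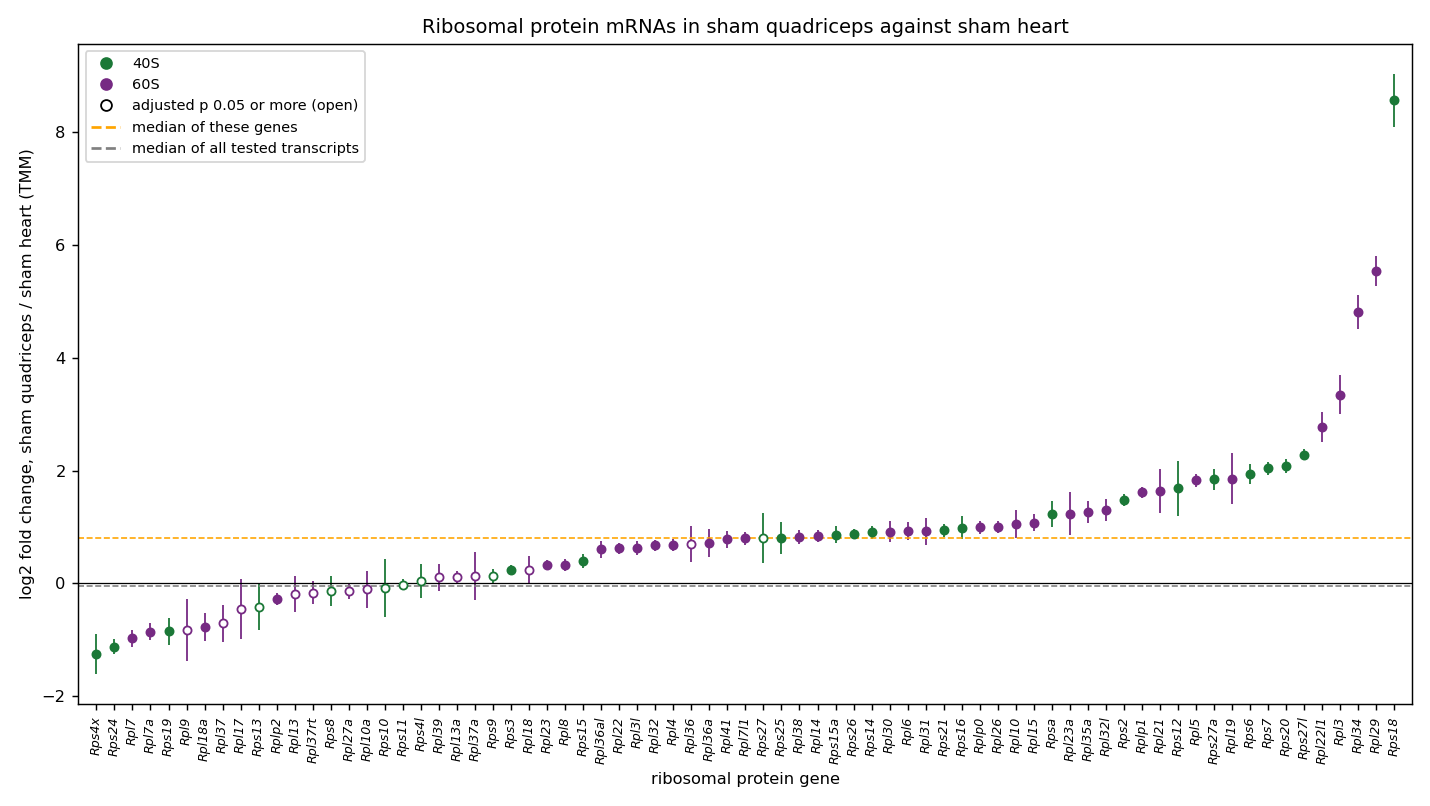
Log2 fold change of sham quadriceps over sham heart (TMM scaling, y axis) for the tested genes reported here in order of size, as the edgeR estimate with its standard error (3 libraries each), filled where the adjusted p was under 0.05. Most genes lie between -1 and 2 and cluster about the family median of 0.80, while Rps18, Rpl29, Rpl34 and Rpl3 stand above 3.

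Scaling to the library totals, whose denominator holds those 25 large transcripts in full, moved all of these values down. The median over the family became 0.06 and that over all transcripts -0.80. Then 15 genes were higher and 23 lower, where 13.3% of all transcripts were higher and 62.6% lower. Of the 23, Rpl9 had passed the filter through heart alone, so its call carries no weight. With the size factors of DESeq2 46 genes were higher and 5 lower, with a median of 0.82, where 31.7% and 31.8% of all transcripts were. The distance of the family median from that of all transcripts was 0.86 with TMM, 0.86 with library totals and 0.86 with DESeq2. A change of scaling moves all transcripts by nearly the same amount. These 3 distances were therefore bound to be alike and are not separate support. Under all 3 scalings, 15 genes were called higher (among them Rpl3, Rpl5, Rpl22l1, Rpl29, Rpl32l, Rpl34, Rplp1, Rps2, Rps6, Rps7, Rps18, Rps20, Rps27a and Rps27l) and 5 were called lower (Rpl7, Rpl7a, Rps4x, Rps19 and Rps24), where Rpl3 and Rps18 had passed the filter in quadriceps alone. A further 4 (Rpl8, Rpl23, Rps3 and Rps15) were called higher with TMM and lower with library totals. The shares of all transcripts called alike under all 3 scalings, or in opposite directions, were not computed.

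**Figure D3:**
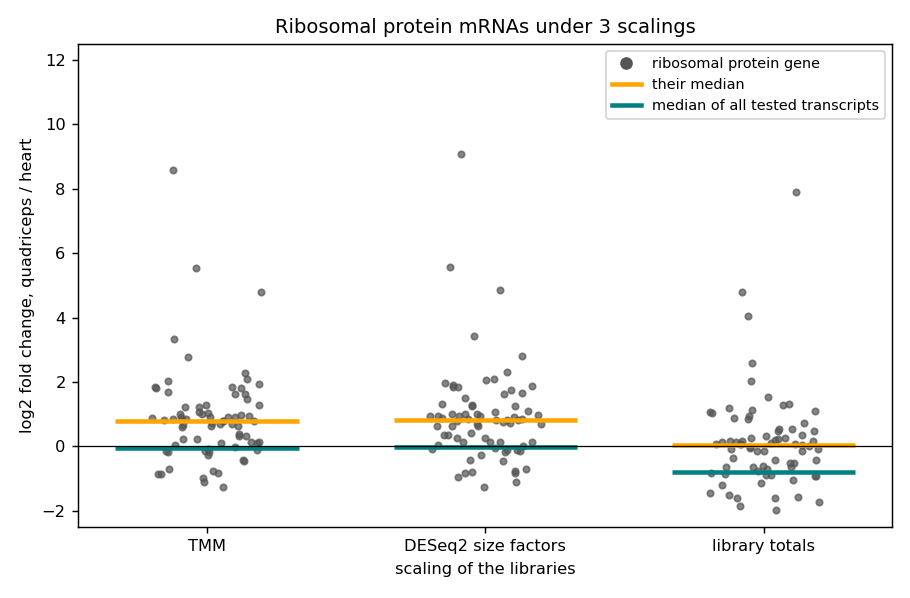
Log2 fold change of sham quadriceps over sham heart for the 74 genes under TMM, DESeq2 size factors and library totals, with 1 point per gene (spread sideways for legibility) and bars for the median of these genes and of all tested transcripts. The 2 medians move together, from 0.80 and -0.06 with TMM to 0.06 and -0.80 with library totals.

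Rpl3l, at chr17:24727820-24736143 on the plus strand of mm10, was among the most counted ribosomal protein genes in both tissues. Its counts were 8340, 8826 and 7748 across the hearts against 6473, 7481 and 4706 across the quadriceps. It took 16.6% to 16.9% of all counts of the family in heart and 14.6% to 17.2% in quadriceps. Per kilobase of transcript it was the second of the 86 genes in both tissues, with 130 CPM (TMM) in heart and 200 in quadriceps. Rpl4, a protein that lines the exit tunnel, was above it with 169 and 271. In heart the third was Rpl8, which lies near the peptidyl transferase centre, with 87.3. These ranks compare counted reads, and unique windows made up 55.7% of Rpl4 and 92.0% of Rpl8.

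The level of Rpl3l was 177 ± 2.99 CPM in heart and 272 ± 37.8 in quadriceps (TMM, SD, n = 3 each), without overlap between the tissues. Its log2 fold change was 0.62 (SE 0.12, edgeR adjusted p = 0.00149). With library totals it was -0.14 (edgeR adjusted p = 0.216). By TMM factors computed on the family alone, which give more weight to genes with high counts, it was 0.01 (edgeR adjusted p = 0.954). With TMM over all transcripts, its 0.62 lay below the unweighted family median of 0.80. Its distance from the family centre thus depended on how the centre was taken, and the missing call does not show equality. Rpl4 and Rpl22 also lay near the weighted centre, with 0.07 and 0.01 on that scale (edgeR adjusted p = 0.562 and 0.953).

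Rpl3l was listed with a second, shorter transcript, of 1030 bases against 1360. Its counts were 65.4%, 63.8% and 63.9% of those of the longer transcript in heart and 73.2%, 75.2% and 72.9% in quadriceps. The quadriceps values were all higher, and the heart values lay within 2 percentage points of each other. A read in shared exons may enter both counts, so these percentages are no isoform shares. This comparison was picked after the counts were seen, and it was not tested.

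Rpl3 itself, at chr15:80077791-80091868 on the minus strand, had 4, 6 and 3 counts across the hearts against 25, 22 and 19 across the quadriceps. It passed the filter through quadriceps alone, so its fitted log2 fold change of 3.34 (SE 0.35), or 2.60 with library totals, is given as a description with no test. The tissues were without overlap, but all 6 libraries together held under 100 counts. Of its windows 120 were unique, against 1326 of Rpl3l. Per 100 unique windows, as if reads had been counted in these alone, Rpl3 had 3.61 counts in heart and 18.3 in quadriceps, and Rpl3l had 626 and 469. The distance between the genes thus remained large on this scale in both tissues.

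A ratio of 2 genes within a library needs no scaling between libraries. The log2 ratio of Rpl3l to Rpl3, in counts per kilobase, was 11.01, 10.51 and 11.32 in heart and 8.005, 8.398 and 7.941 in quadriceps. The difference, quadriceps minus heart, was -2.83, from a mean of 10.9 ± 0.41 to one of 8.11 ± 0.248 (SD, n = 3 each). The exact two-sided permutation test gave p = 0.1, the smallest that 3 against 3 libraries allow, and 0.12 after adjustment over the 6 pairs tested. Since Rpl3 passed the filter through quadriceps alone, this p-value carries no weight, and the ratio is a description. Counts of Rpl3l exceeded those of its parent in every library, and the 3 quadriceps ratios all lay below the 3 heart ratios.

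Of the other 5 ratios, 4 lay higher in quadriceps and 1 overlapped. The ratio of Rpl22l1 to Rpl22 was higher in quadriceps by 2.17 on the log2 scale (-4.41 ± 0.345 in heart and -2.24 ± 0.274 in quadriceps). That of Rpl7l1 to Rpl7 was higher by 1.79 and that of Rps27l to Rps27 by 1.52. That of Rps4l, whose only listed transcript is non-coding, to Rps4x was higher by 1.40 (-1.13 ± 0.0628 in heart and 0.26 ± 0.84 in quadriceps). Each of these 4 had non-overlapping groups, an exact permutation p of 0.1 and an adjusted p of 0.12. The ratio of Rpl36al to Rpl36a differed by -0.10 with overlapping groups (exact permutation p = 0.5), and 63.1% of the exon bases of Rpl36al overlap another annotated gene on the same strand. Rpl10l, a testis paralog of Rpl10, had 0 counts in all 6 libraries, and Rpl39l had 2 to 4, so neither pair was tested.

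**Figure D4:**
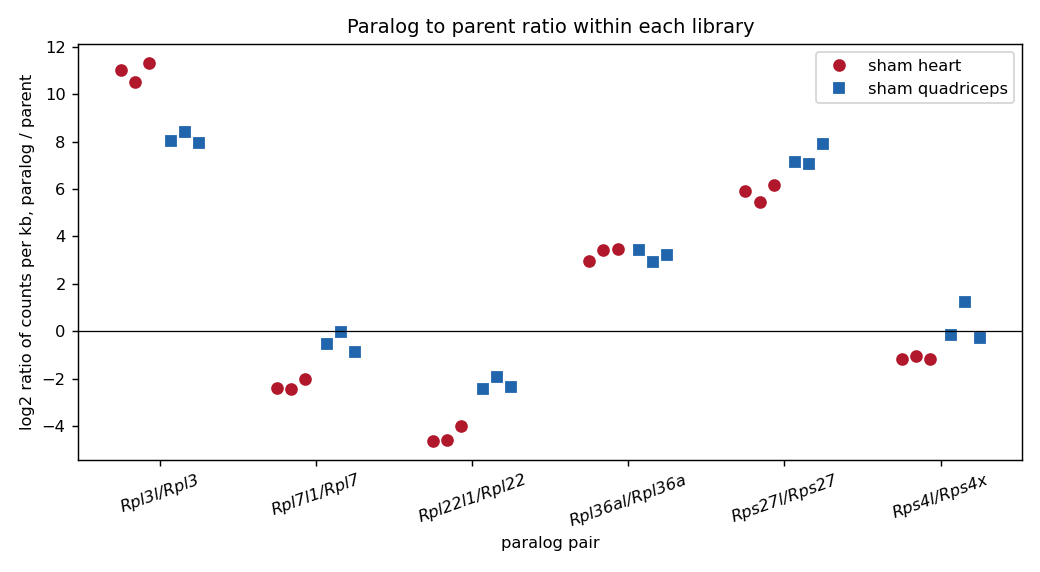
Log2 ratio of counts per kilobase of a paralog to its parent within each library, for 6 pairs, with circles for 3 sham heart and squares for 3 sham quadriceps libraries. The ratio of Rpl3l to Rpl3 is lower in quadriceps (8.11 against 10.9), that of Rpl36al to Rpl36a overlaps, and the other 4 pairs are higher in quadriceps.

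The single genes behind those ratios moved unequally. Rpl22l1, a paralog of the RNA-binding large-subunit protein Rpl22, had 18, 18 and 26 counts across the hearts against 75, 90 and 46 across the quadriceps (log2 fold change 2.78, SE 0.26, edgeR adjusted p = 1.35e-05), and 30.3% of its exon bases overlap a gene on the opposite strand. Rpl22 had 2184, 2150 and 2068 counts against 2012, 1689 and 1152 (log2 fold change 0.62). Rps27l, a p53-responsive paralog of Rps27, had 374, 398 and 321 counts across the hearts against 998, 954 and 647 across the quadriceps (log2 fold change 2.28, SE 0.10, edgeR adjusted p = 7.77e-08). Rps27 had 3 to 10 counts in any library and was not called. Rpl7l1 was higher by 0.80 while Rpl7 was lower by a log2 fold change of -0.98 (SE 0.16, edgeR adjusted p = 0.000401), with 995, 1166 and 845 counts across the hearts against 302, 200 and 230 across the quadriceps. With library totals Rpl7l1 was not called (0.05, edgeR adjusted p = 0.725). Rps4l was not called (0.04, edgeR adjusted p = 0.911), whereas Rps4x, the X-linked S4 protein, had 60, 62 and 76 counts across the hearts against 24, 7 and 10 across the quadriceps.

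**Figure D5:**
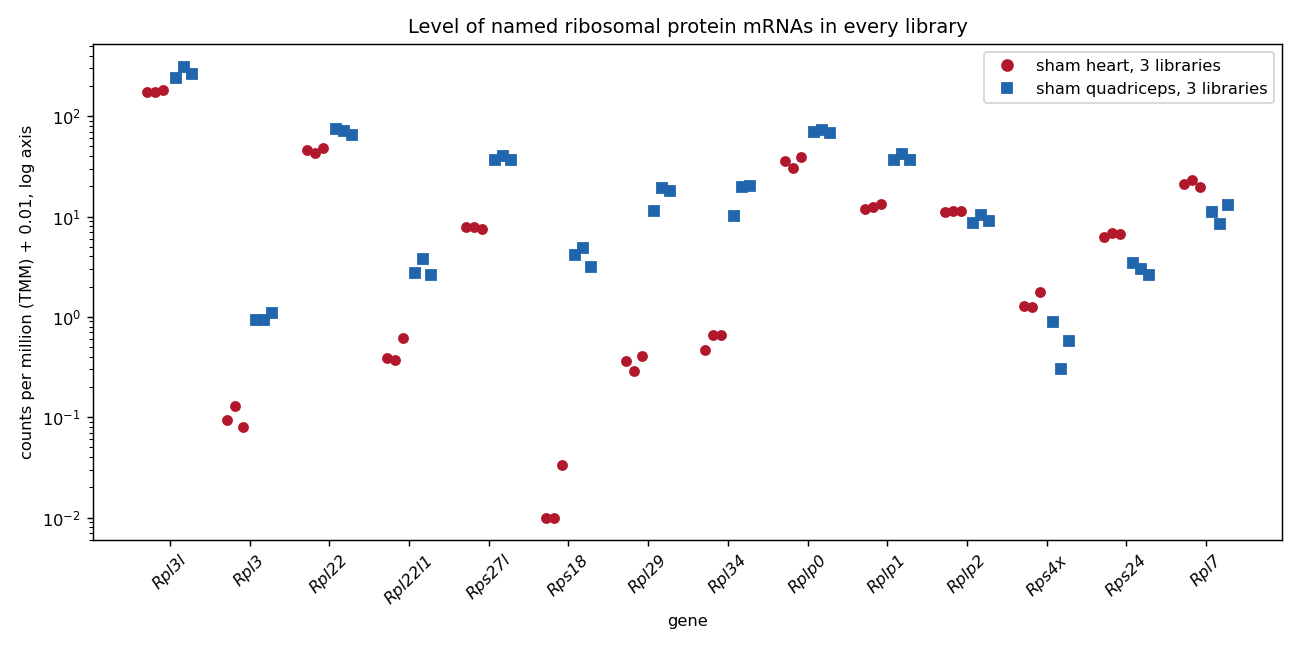
Level in CPM (TMM, 0.01 added, log axis) of 14 named genes in each of 3 sham heart (circles) and 3 sham quadriceps (squares) libraries. Rpl3l and Rpl3 lie over 2 steps of 10 apart in both tissues, Rps18 is near 0 in heart, and Rps4x, Rps24 and Rpl7 are lower in quadriceps.

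The highest fitted value was that of Rps18, a protein of the 40S head. It had 0, 0 and 1 counts across the hearts against 112, 115 and 56 across the quadriceps. The ratio of scaled counts was 579, with an exact 95% interval of 103 to 23000 that covers counting error only. The ratio rests on a single count in the third heart library, and without that library the hearts held 0. The fitted log2 fold change of 8.57 (SE 0.47) depends on the prior count and ran from 7.91 to 10.1 over the alternatives, and since Rps18 passed the filter through quadriceps alone it is a description with no test. Only 13 of its windows were unique.

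Rpl29, a small basic protein of the large subunit, had 17, 14 and 17 counts across the hearts against 308, 460 and 316 across the quadriceps (log2 fold change 5.54, SE 0.26, edgeR adjusted p = 1.43e-07). Rpl34, also of the large subunit, had 22, 33 and 28 counts across the hearts against 278, 473 and 354 across the quadriceps (log2 fold change 4.81, SE 0.30, edgeR adjusted p = 9.44e-07), and the value was 7.54 for its transcript with the lowest count. The excess of Rpl34 lay in the part that its transcripts share. The longest listed transcript (621 bases) held 20, 28 and 24 counts across the hearts against 28, 34 and 29 across the quadriceps beyond those of the shortest (485 bases), while the shortest itself went from 2, 5 and 4 to 250, 439 and 325. This split was looked at after the counts were seen. The windows of Rpl29 recurred in 79 pseudogenes and those of Rpl34 in 9.

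Rps20, with 90.4% unique windows, was higher by 2.08 (SE 0.13). Rps6, the 40S protein that S6 kinase phosphorylates, was higher by 1.94 (SE 0.18), with 40, 51 and 52 counts across the hearts against 99, 99 and 70 across the quadriceps. Rpsa, the laminin receptor protein of the 40S subunit, was higher by 1.23 (SE 0.23) but on 21 to 41 counts, and was not called with library totals (0.48, edgeR adjusted p = 0.0983).

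The acidic proteins of the stalk, which recruits elongation factors to the ribosome, went apart. Rplp0, the base of the stalk, had 1707, 1529 and 1692 counts across the hearts against 1889, 1755 and 1191 across the quadriceps (log2 fold change 0.99, SE 0.12, edgeR adjusted p = 5.22e-05), and was not called with library totals (0.24, edgeR adjusted p = 0.0845). Rplp1 had 568, 630 and 570 against 1001, 1003 and 644 (1.61, SE 0.10, edgeR adjusted p = 1.16e-06). Rplp2, its binding partner, had 528, 573 and 490 against 233, 247 and 160 (-0.28, SE 0.11, edgeR adjusted p = 0.0447), and this call was lost with DESeq2 (adjusted p = 0.132), and on leaving out any of 5 of the 6 libraries in turn (edgeR adjusted p up to 0.16). Relative to the family Rplp2 was lower by a log2 fold change of -0.89 (edgeR adjusted p = 4.66e-05). Of the windows, 31.8% of Rplp0, 12.2% of Rplp1 and 56.4% of Rplp2 were unique.

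Among the 5 most lowered genes, Rps24 had 299, 343 and 286 counts across the hearts against 93, 71 and 46 across the quadriceps (log2 fold change -1.12, SE 0.14, edgeR adjusted p = 7.34e-05). Rps4x was lower by -1.26 (SE 0.35, edgeR adjusted p = 0.0106), Rpl7 by -0.98, Rpl7a by -0.86 (SE 0.15) and Rps19, which is mutated in Diamond-Blackfan anaemia, by -0.86 (SE 0.24). In these 5 genes the tissues did not overlap. They were picked as the largest called falls, so the lack of overlap is no further sign of a difference. Unique windows made up 8.32% to 41.8% of each gene.

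Measured against the family alone, 25 of the 74 genes were above and 20 below its centre in quadriceps (edgeR adjusted p under 0.05), where 15.9% of all transcripts were above and 57.7% below. Of those above, Rpl3 and Rps18 had passed the filter through quadriceps alone, and of those below, Rpl9 through heart alone. The calls of these genes carry no weight as a sign of a difference. The count above depended on the filter, at 14 genes without one and 16 with at least 10 counts in every library. The shares of all transcripts above the centre under these other filters were not computed. The summed counts per kilobase of the 40S genes were 0.417 to 0.443 of those of the 60S genes in heart and 0.511 to 0.56 in quadriceps, without overlap. Leaving out Rpl3l, the ratio was 0.507 to 0.538 in heart and 0.608 to 0.684 in quadriceps.

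The 12 genes that did not pass the filter included Rpl10l, Rpl11, Rpl12, Rpl24, Rpl27, Rpl28, Rpl35, Rpl39l, Rps23, Rps28 and Rps29. Rpl11, which binds Mdm2 under ribosomal stress, had 1, 0 and 3 counts across the hearts against 4, 3 and 0 across the quadriceps. Most of these proteins are core parts of the ribosome in all cells, and their counts did not exceed 10 in any library. Unique windows made up 99.3% of Rpl39l and 37.8% of Rpl11. Passing rested on quadriceps alone for Rpl3, Rps12 and Rps18 and on heart alone for Rpl9 and Rps10.

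Start sites were inspected for the TOP tract. A tract was counted where C and at least 5 more pyrimidines (C or T) in a row began within 5 bases of the annotated start, on the strand of the gene. It was found in 26 of 65 matched genes (40%), and in 10.2% of 27025 mouse promoters. The sequences shown are the 30 bases around the start from RefSeq promoters (GRCm38.p6), with the tract in capitals, for Rpl3l and for genes described above.
Rpl3l, chr17:24727811-24727840, plus strand: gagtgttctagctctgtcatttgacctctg
Rpl22l1, chr3:28805493-28805522, plus strand: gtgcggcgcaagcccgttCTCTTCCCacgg
Rps18, chr17:33955651-33955680, minus strand: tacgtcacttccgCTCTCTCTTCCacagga
Rpl34, chr3:130730384-130730413, minus strand: cgccttccctgacgtaCTTCCTgtccggcg
Rps6, chr4:86857353-86857382, minus strand: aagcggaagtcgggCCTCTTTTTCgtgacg
Rps24, chr14:24490663-24490692, plus strand: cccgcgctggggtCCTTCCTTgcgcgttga
Rplp2, chr7:141447636-141447665, plus strand: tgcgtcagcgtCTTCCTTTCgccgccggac
In Rpl3l no such run began in this window. The tract was present in 13 of 36 genes that were higher in quadriceps, in 3 of 5 that were lower and in 6 of 14 that were not called. Annotated starts may lie some bases off the used ones, and the tract was not tested against expression.

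In the rest of the translation apparatus the counts in each direction depended on the scaling. The shares of all transcripts to set beside the counts that follow were 32.2% higher and 34.4% lower with TMM, and 13.3% and 62.6% with library totals. Of 39 initiation factors 19 were higher and 5 lower (median log2 fold change 0.34), from Eif3j1 at 3.90 to Eif3a at -0.93. Of 48 ribosome biogenesis factors 26 were higher and 1 lower (median 0.35), where Nhp2, a part of box H/ACA particles, was highest at 1.94 and Bysl the one lowered, at -0.48. Of 11 elongation and termination factors 6 were higher and 2 lower (median 0.42). The lowered ones were Eef1a1 (-1.16, SE 0.13), the general elongation factor, and Eef1a2 (-0.52, SE 0.13), its form in adult muscle and neurons, and Eef2k, the kinase that inhibits Eef2, was highest at 1.44. With library totals 5 initiation factors were higher and 24 lower (median -0.41), 4 biogenesis factors were higher and 26 lower (median -0.41), and 2 elongation and termination factors were higher and 6 lower (median -0.34).

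Outside the name rule, Fau, which encodes the S30 protein as a ubiquitin-like fusion, was lower (-1.59, SE 0.28) with 67, 62 and 69 counts across the hearts against 9, 15 and 8 across the quadriceps. Rack1, the scaffold on the 40S subunit, was higher with TMM (0.58) and not called with library totals (-0.17, edgeR adjusted p = 0.135). Among 18 other mRNAs known to carry a TOP tract, 9 were higher and 4 lower with TMM (median 0.31), and 2 were higher and 11 lower with library totals (median -0.45). Among 13 genes that control ribosome synthesis 7 were higher and 4 lower with TMM (median 0.40), and 2 were higher and 6 lower with library totals (median -0.36). Deptor, an inhibitor of mTOR, was highest at 3.75 (433, 456 and 399 counts in heart, 3666, 2798 and 2070 in quadriceps), Akt1 was lowest at -1.97, Larp1 was higher with TMM (0.40) but lower with library totals (-0.36, edgeR adjusted p = 0.0104), and Myc was not called (0.37, edgeR adjusted p = 0.124).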

How the data were processed

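Per the labels and the study's methods, the authors purified mRNA from total RNA, prepared ScriptSeq v2 libraries, sequenced single-ended reads of 50 bases, trimmed them with Trim Galore, aligned them to mm10 with STAR and counted them per RefSeq transcript with Rsubread. Versions and the treatment of strand and of multiply matching reads are not given in the sources used here. The deposited values used are raw counts per transcript. Columns of the authors' comparisons (fold changes, p-values) and RPKM were not used, nor was the TAC table, which holds 0 of the genes.

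Counts of 35745 transcripts were filtered (more than 5 counts in at least 2 libraries), which left 24280, scaled by TMM and tested with edgeR 4.0.16 (R 4.3.3), with DESeq2 1.42.0 as an alternative. Calls had an adjusted p under 0.05. The scripts were tested on simulated data. Some items are not reported here. The members and lists were chosen with earlier results of these data known. Named genes were Rpl3 and Rpl3l, the paralog pairs, Rplp0 to Rplp2, Rpsa, Rps6, the 5 largest called changes in each direction, the 3 highest levels per kilobase in each tissue, the genes that did not pass the filter, and set genes and extremes of the lists. Rps20 was added for its unique windows after its values were seen. Library pairs differed by more than counting noise (chi-square per degree of freedom 7.16 to 56.6), so none was a duplicate. Unique windows were computed on GENCODE transcripts of GRCm38, and start sequences came from RefSeq promoters. Intervals cover counting error only, since the reads carry no molecular identifiers.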

Additional observations from a re-analysis of the deposited data

How the results depend on the processing

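With library totals in place of TMM, 15 genes were higher, 23 lower and 5 past a log2 fold change of 2, with a median of 0.0557. Among all transcripts 13.3% were then higher and 62.6% lower. The log2 fold change then turned for Rpl3l (-0.14), Rpl4 (-0.0704), Rpl8 (-0.43), Rpl22 (-0.13), Rpl36a (-0.0310), Rpl36al (-0.15), Rpl39 (-0.64) and Rps4l (-0.70). The family's share of counts, quadriceps minus heart, was 0.0538 percentage points without the transcripts over 1% of a library. Without a filter on low counts 14 genes were above the family centre, and with at least 10 counts in every library 16 were, and 5 passed a log2 fold change of 2. For these filters the shares of all transcripts above the centre, or past that fold change, were not computed. With library totals the share past that fold change was not computed either. In subsets chosen after seeing the data, 22 genes were higher and 2 lower of 31 with at least 50% unique windows, and 27 and 2 of 33 with at least 100 counts in every library. All tested transcripts gave 32.2% higher and 34.4% lower, and shares over transcripts of like uniqueness or counts were not computed.

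Leaving out each library in turn gave 42 to 47 genes higher, 5 to 7 lower, a median of 0.72 to 0.88, and 7 to 11 higher and 0 lower past a log2 fold change of 2. Among all transcripts 29.2% to 33.8% were then called higher and 31% to 34.7% lower. Leaving out libraries also gave 18 to 24 genes above and 15 to 18 below the family centre, and a share difference of -0.00575 to -0.00325 percentage points. For these fits the shares of all transcripts off the family centre, or past a log2 fold change of 2, were not computed. The ratio differences were -3.05 to -2.65 for Rpl3l over Rpl3, 2.02 to 2.37 for Rpl22l1 over Rpl22, 1.559 to 1.996 for Rpl7l1 over Rpl7, 1.24 to 1.68 for Rps27l over Rps27, 0.911 to 1.67 for Rps4l over Rps4x, and -0.265 to 0.0349 for Rpl36al over Rpl36a, which turned without the second quadriceps library. Rps4l ranged from -0.102 to 0.225 and was below 0 without heart 1, heart 2 or quadriceps 1 (-0.0545, -0.0247 and -0.102), and Rpl39 ranged from -0.0205, without heart 2, to 0.215. Rpl36a, Rpl8 and Rplp2 lost their calls under several of these, and Rpl36a and Rplp2 did with DESeq2. Same-numbered libraries did not deviate together (r = 0.02, -0.10 and -0.01). With the replicate block 45 genes were higher and 6 lower (median 0.78), where 31.1% and 33.7% of all transcripts were. Of the named genes, Rpl36a, Rpl8 and Rplp2 then lost their calls. TAC alternatives were not run, as the table holds 0 of the genes. Low counts limit Rpl3, Rps18 and the 12 genes that did not pass the filter.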
